A study of Homo sapiens with 20 samples.

Results

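The accessible chromatin of 6 gene loci was described: TEAD1, TEAD2, TEAD3 and TEAD4, which encode the 4 human TEAD DNA-binding factors, and VGLL3 and VGLL4, which encode vestigial-like cofactors that bind them. All peaks of the 7 deposited ATAC-seq peak lists that overlap the hg19 span of each gene with 10 kb to each side were taken. These were chr11:12686000-12976000 for TEAD1, chr19:49834000-49876000 for TEAD2, chr6:35431000-35475000 for TEAD3, chr12:3058000-3160000 for TEAD4, chr3:86977000-87051000 for VGLL3 and chr3:11587000-11773000 for VGLL4. The loci held 1046 of the 1407450 peaks in all lists. Merging overlapping or abutting peaks of all lists gave 240 sites in the loci, of 372005 sites genome-wide.

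TEAD proteins carry the DNA-binding domain that the coactivators YAP and TAZ lack, and they recruit YAP or TAZ to enhancers and promoters when Hippo signalling is low. Vestigial-like proteins bind TEADs through a Tondu motif. VGLL4 competes with YAP and TAZ for TEADs and limits the transcription they drive, whereas VGLL3 is known as a TEAD cofactor in mesenchymal and muscle cells.

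The study asked whether TAZ-CAMTA1 and YAP-TFE3, the fusion proteins of epithelioid hemangioendothelioma, alter chromatin accessibility. ATAC-seq, in which Tn5 transposase cuts and tags open chromatin, was performed on 20 libraries of SW872, an established human liposarcoma cell line, and all cells had been stably transduced with a vector. The groups were the empty vector (EV), TAZ4SA and YAP5SA (TAZ and YAP with serines changed to alanine), full-length CAMTA1, full-length TFE3, TAZ-CAMTA1 and YAP-TFE3. Every group had 3 libraries except TFE3, with 2; the titles of the YAP-TFE3 libraries name the YAP part as Yap5SA, and the title of 1 EV library carries the word redo. Per the methods of the study, the constructs were expressed from the retroviral vector pBabeNeo, replicates came from separate transductions, and the stable lines were pools of selected cells rather than clones. Levels of the introduced proteins are not part of the files.

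Since a vector had a single peak list, the values carry no replicate error and no test was possible. The lists held 152702 (TAZ4SA) to 236893 (TAZ-CAMTA1) peaks at unknown sequencing depth. Median peak width was 169 to 217 bp, and the median summit −log10 p was 4.67 to 4.87. The value given for a site is its area, the deposited signal of its peaks (area under the curve of the peak caller's statistic), summed over them. Areas have no absolute unit and grow with depth. Distances run from the gene 5′ end in the direction of transcription; this end was placed 10 kb inside the span edge and is accurate to about 1 kb. The lists hold no expression values, so the identity of the cells could not be checked against marker genes.

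RefSeq start sequences (GRCh38.p14) were at hand for 4 of the 6 genes, in 9 entries. Shown for TEAD2, TEAD3, VGLL3 and VGLL4 are the 250 bases before the most upstream start, since the 5′ end of every locus held a peak in all 7 lists. All 4 lie on the minus strand and are written 5′ to 3′ on the strand of the gene, with CG dinucleotides in capitals. In GRCh38.p14 they lie at chr19:49362417-49362666 (TEAD2), chr6:35497080-35497329 (TEAD3), chr3:86991150-86991399 (VGLL3) and chr3:11720540-11720789 (VGLL4), which is another build than that of the peaks.
TEAD2: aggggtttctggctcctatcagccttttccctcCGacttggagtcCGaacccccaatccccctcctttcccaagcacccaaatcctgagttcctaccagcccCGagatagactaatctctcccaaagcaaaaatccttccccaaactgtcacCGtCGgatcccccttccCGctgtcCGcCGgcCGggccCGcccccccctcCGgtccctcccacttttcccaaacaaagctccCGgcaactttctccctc
TEAD3: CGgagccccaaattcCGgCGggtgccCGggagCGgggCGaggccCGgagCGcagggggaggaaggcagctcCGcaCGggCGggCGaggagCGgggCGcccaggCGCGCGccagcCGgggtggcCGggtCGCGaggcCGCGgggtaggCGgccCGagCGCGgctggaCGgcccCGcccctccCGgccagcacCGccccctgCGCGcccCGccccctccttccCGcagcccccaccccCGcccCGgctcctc
VGLL3: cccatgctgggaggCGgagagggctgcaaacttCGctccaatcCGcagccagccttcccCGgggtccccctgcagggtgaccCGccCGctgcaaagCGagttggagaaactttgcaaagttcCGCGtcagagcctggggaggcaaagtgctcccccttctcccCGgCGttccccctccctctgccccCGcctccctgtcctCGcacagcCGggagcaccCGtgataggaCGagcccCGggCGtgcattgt
VGLL4: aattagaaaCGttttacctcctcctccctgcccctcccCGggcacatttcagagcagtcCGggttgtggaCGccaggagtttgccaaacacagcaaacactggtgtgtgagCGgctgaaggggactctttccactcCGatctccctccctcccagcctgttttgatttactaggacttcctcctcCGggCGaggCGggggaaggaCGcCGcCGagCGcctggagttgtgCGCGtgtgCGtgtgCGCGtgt

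CG dinucleotides, which cluster in CpG islands at many constitutively open starts, numbered 37 in the TEAD3 sequence, 18 in each of the VGLL3 and VGLL4 sequences and 12 in the TEAD2 sequence. The median over 35116 RefSeq start sequences of the same length was 11. The TEAD motif core GGAATG, searched on both strands, was in none of the 9 entries and in 11.9% of all start sequences. TGACTCA, the site of AP-1 factors, was in none of the 9 either (4.2% of all). CACGTG, the E-box bound by TFE3 and its relatives, was in 1 entry, the third VGLL4 start counted from the most upstream (6.34% of all). A match or its lack describes these letters only.

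TEAD3 was the most densely accessible of the 6 loci and VGLL3 the least. Bases covered by peaks per kb of TEAD3 exceeded the genome-wide value of the same list 7.64 times in the median of the 7 lists, from 6.09 times in EV to 8.67 times in YAP-TFE3. The ratio for TEAD1 was 4.68, from 3.32 in TAZ4SA to 5.60 in TAZ-CAMTA1. TEAD2 (3.01), VGLL4 (2.88) and TEAD4 (1.98) followed, and VGLL3 alone lay below the genome at 0.541. The ranges of TEAD3, TEAD4 and VGLL3 over the 7 lists overlapped with that of no other locus, while that of TEAD2 overlapped with those of TEAD1 and VGLL4.

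TEAD1 held the most peaks of the 6 loci in each of the 7 lists. It had 75 peaks in EV, 48 in TAZ4SA, 88 in YAP5SA, 93 in CAMTA1, 81 in TFE3, 117 in TAZ-CAMTA1 and 108 in YAP-TFE3. Over all 6 loci, peaks numbered 127 in EV, 91 in TAZ4SA, 146 in YAP5SA, 162 in CAMTA1, 139 in TFE3, 191 in TAZ-CAMTA1 and 190 in YAP-TFE3. TAZ-CAMTA1 thus had the most peaks, followed by YAP-TFE3, and TAZ4SA had the fewest, as in the whole lists. As a share of its list, the loci held from 0.0596% of the peaks in TAZ4SA to 0.0889% in TFE3.

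**Figure D1:**
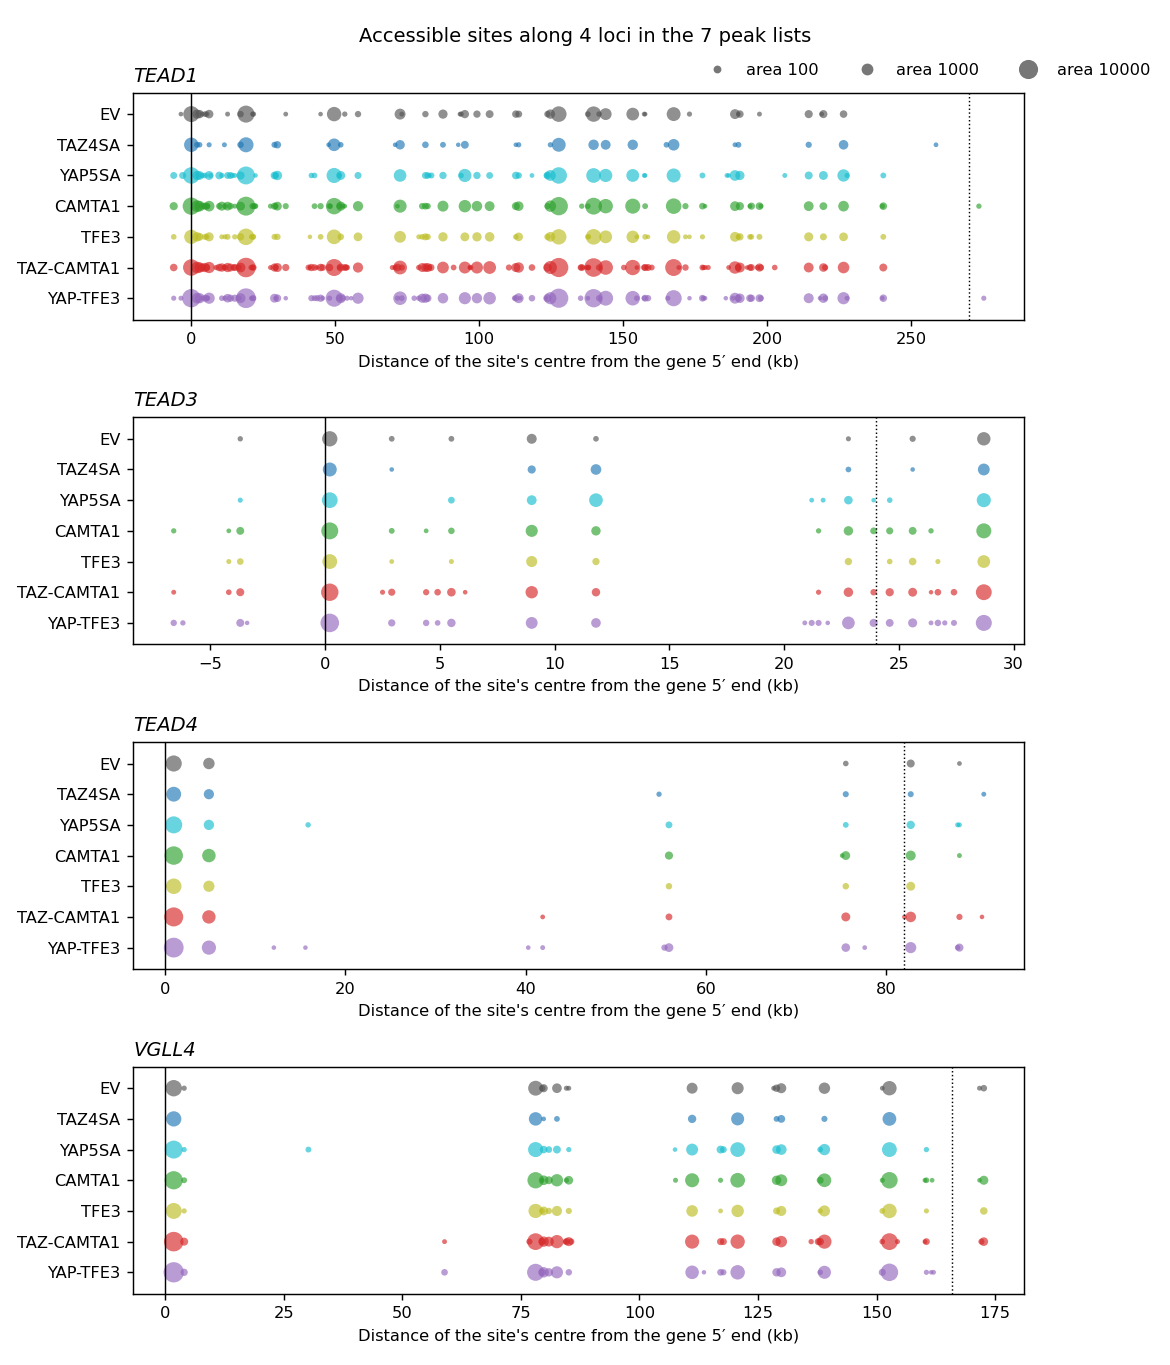
Each point is a site with a peak in that list, at the distance of its centre from the gene 5′ end in kb (horizontal axis), with 1 row per peak list and the point size growing with the area; solid and dotted lines mark the 5′ and 3′ ends of the gene. TEAD1 holds sites along nearly its whole length, whereas in VGLL4 and TEAD4 large points stand at the 5′ end and after a long stretch with few and small ones.

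The 5′ ends of the 4 TEAD genes were open with every vector. At TEAD1 (chr11:12694780-12697191) the area was 7227 in EV, 4722 in TAZ4SA, 8278 in YAP5SA, 9876 in CAMTA1, 4416 in TFE3, 8179 in TAZ-CAMTA1 and 12636 in YAP-TFE3. TEAD2 (chr19:49864393-49867817) had 7986 in EV, 4035 in TAZ4SA, 6709 in YAP5SA, 9590.0 in CAMTA1, 5263 in TFE3, 12429 in TAZ-CAMTA1 and 12945 in YAP-TFE3. DKKL1, an unrelated gene, overlaps the 5′ end of TEAD2 in the RefSeq gene table, so this site cannot be assigned to TEAD2 alone. The TEAD3 site (chr6:35463015-35466557) measured 6012 in EV, 4134 in TAZ4SA, 6749 in YAP5SA, 9193 in CAMTA1, 5282 in TFE3, 10228 in TAZ-CAMTA1 and 13297 in YAP-TFE3. For TEAD4 (chr12:3067222-3070815), the TEAD through which TAZ-CAMTA1 is known to act, the values were 7464 in EV, 5319 in TAZ4SA, 9329 in YAP5SA, 12923 in CAMTA1, 6398 in TFE3, 14770.2 in TAZ-CAMTA1 and 17202 in YAP-TFE3. Within their own lists these 4 sites ranked between percentiles 93.6 and 99.1 of area, so each was among the larger sites whatever the vector.

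Of the cofactor genes, VGLL4 had a 5′ end as large as those of the TEADs and VGLL3 did not. The 5′-end site of VGLL4 (chr3:11759369-11762955), the antagonist of YAP and TAZ, measured 7986 in EV, 5946 in TAZ4SA, 11655 in YAP5SA, 12384 in CAMTA1, 7155 in TFE3, 16386 in TAZ-CAMTA1 and 19016 in YAP-TFE3. It was the largest 5′-end site of the 6 loci in YAP5SA, TFE3 and both fusion lists, and in TAZ4SA as well. VGLL3 (chr3:87039512-87040942) had 982 in EV, 312 in TAZ4SA, 1703 in YAP5SA, 2394 in CAMTA1, 1034 in TFE3, 1851 in TAZ-CAMTA1 and 4471 in YAP-TFE3. Its percentile ran from 65.9 in TAZ4SA to 90.6 in YAP-TFE3, below the 5′ ends of the other 5 loci in every list. Apart from this site, VGLL3 had 1 small site in YAP-TFE3 (area 94.7, at -2.0 kb) and no peak elsewhere in its span.

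**Figure D2:**
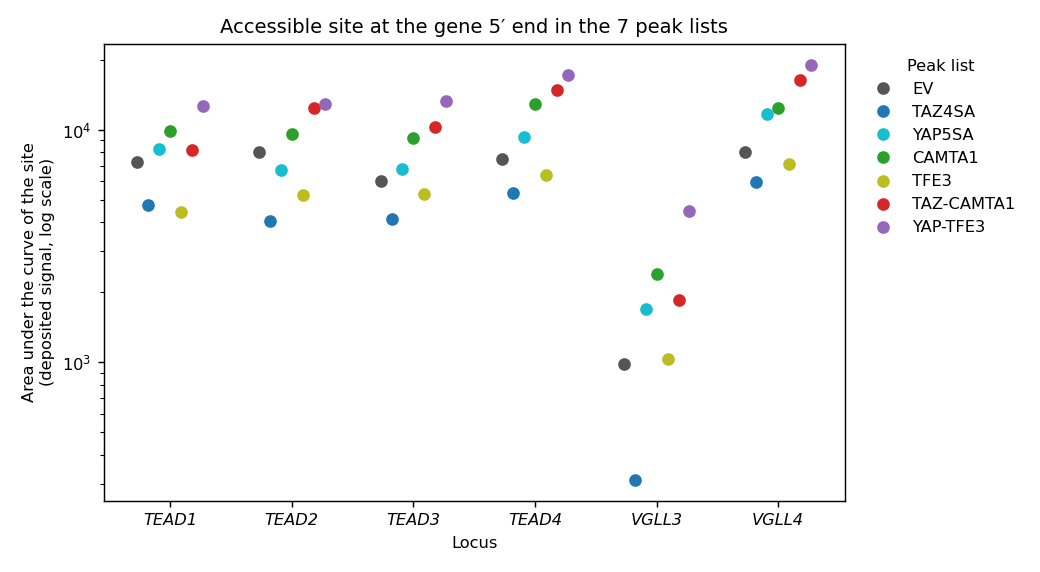
Area under the curve (deposited signal, log scale) of the site at the gene 5′ end, with 1 point per peak list for each of the 6 loci; there are no error bars because a vector has 1 list. VGLL3 lies below the other loci, and YAP-TFE3 is the highest point at each locus, up to 19016 at VGLL4.

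To set lists of unequal signal side by side, the log2 ratio of a site's area to EV was centred on the median over all sites that the list shares with EV. Those medians were ratios of 0.665 for TAZ4SA, 1.31 for YAP5SA, 2.06 for CAMTA1, 1.09 for TFE3, 2.56 for TAZ-CAMTA1 and 2.49 for YAP-TFE3. After centring, the 6 sites at the 5′ ends given above lay within 2 times of EV, with 2 exceptions. TEAD1 was at 0.442 times EV in TAZ-CAMTA1, and VGLL3 at 0.477 times EV in TAZ4SA. When the centring was done within 10 bins of equal size by area, chosen after seeing the data, the first of these became 0.678 and the second 0.531. TEAD1 had a further site close to its 5′ end, at 2.0 kb (chr11:12697470-12698475), with 725 in EV, 104 in TAZ4SA, 779 in YAP5SA, 2029 in CAMTA1, 753 in TFE3, 1925 in TAZ-CAMTA1 and 1369.8 in YAP-TFE3. In TAZ4SA it was 0.215 times EV after centring (0.243 within bins), and in the other 5 lists between 0.760 and 1.36 times. VGLL3 in YAP-TFE3 was the highest of the 5′ ends after centring, at 1.83 times EV.

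Within the gene bodies, TEAD1 held the broadest open sites. At 19.0 kb (chr11:12713558-12716515) the area was 9335 in EV, 5628 in TAZ4SA, 11518 in YAP5SA, 14384 in CAMTA1, 8315 in TFE3, 16279 in TAZ-CAMTA1 and 16948 in YAP-TFE3. This gene-body site exceeded the 5′-end site of TEAD1 in all 7 lists. The site at 127.6 kb (chr11:12821604-12825622) measured 6499.8 in EV, 4035 in TAZ4SA, 8173 in YAP5SA, 12544 in CAMTA1, 6178 in TFE3, 15242 in TAZ-CAMTA1 and 15155 in YAP-TFE3, and was the widest site of the loci at 4019 bp. At 49.6 kb (chr11:12744580-12746657) the areas ran from 2734 in TAZ4SA to 9419 in YAP-TFE3. Whether these sites lie in introns or exons was not assigned, because an hg19 annotation was not used here.

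VGLL4 and TEAD4 combined an open 5′ end with a long stretch of few and small sites, none of them in all 7 lists. In VGLL4 no site of all 7 lists lay between 1.8 and 78.1 kb, a stretch of 73.4 kb with 4 sites, the largest of area 395. Beyond it, the site at 78.1 kb (chr3:11683886-11685968) measured 5354 in EV, 3556 in TAZ4SA, 5635 in YAP5SA, 7843 in CAMTA1, 4493 in TFE3, 8741 in TAZ-CAMTA1 and 9389 in YAP-TFE3. A site near the 3′ end, at 152.7 kb (chr3:11609080-11611492), had between 3879.9 in TAZ4SA and 10412 in YAP-TFE3. The large sites of VGLL4 thus lay at its 5′ end and in its distal part. RefSeq lists further starts of VGLL4 there, which in GRCh38.p14 lie 76.6, 116.0, 138.2 and 151.7 kb downstream of the most upstream start. They were not placed on hg19, so whether these sites overlap a start was not tested. TEAD4 held 9 sites in the 69.6 kb between its sites at 4.9 and 75.5 kb, none of them with an EV peak and the largest of area 577. Its site at 4.9 kb (chr12:3072051-3073726) had 1800.2 in EV, 1106 in TAZ4SA, 1174 in YAP5SA, 3583 in CAMTA1, 1659 in TFE3, 3476 in TAZ-CAMTA1 and 4420.1 in YAP-TFE3.

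TEAD3 carried the gene-body site that stood furthest from EV after centring. At 11.8 kb (chr6:35452538-35453914) the area was 77.3 in EV, 1329.6 in TAZ4SA, 3820.2 in YAP5SA, 771 in CAMTA1, 251 in TFE3, 483 in TAZ-CAMTA1 and 870.2 in YAP-TFE3. Both activated coactivators thus had the largest areas here, and each exceeded the fusion that carries its N-terminal part. After centring, the site was 25.9 times EV in TAZ4SA, 37.7 times in YAP5SA, 4.85 times in CAMTA1, 2.99 times in TFE3, 2.44 times in TAZ-CAMTA1 and 4.53 times in YAP-TFE3. Centred between the pair of lists, on the median of all sites they share, the ratio of TAZ-CAMTA1 to TAZ4SA was 0.109 and that of YAP-TFE3 to YAP5SA 0.134. These folds rest on a small EV area, 77.3, where the lowest deposited value of a peak is 20. By summit −log10 p in place of area the direction held for 5 lists and turned for TAZ-CAMTA1 (log2 -0.18). The ratios were smaller by that measure, at a centred log2 of 1.05 in TAZ4SA and 1.23 in YAP5SA.

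A second TEAD3 site had its largest area in YAP-TFE3 instead. At 22.8 kb (chr6:35441566-35442904) the area was 43.8 in EV, 78.3 in TAZ4SA, 519.9 in YAP5SA, 779 in CAMTA1, 258 in TFE3, 807 in TAZ-CAMTA1 and 2797 in YAP-TFE3. By area as deposited, its ratio to EV in YAP-TFE3 exceeded that of the 11.8 kb site in YAP5SA. After centring, the site was 25.7 times EV in YAP-TFE3, 9.04 times in YAP5SA, 8.64 times in CAMTA1, 7.19 times in TAZ-CAMTA1, 5.41 times in TFE3 and 2.68 times in TAZ4SA. Every other list was thus past the fold against EV here. The EV area of 43.8 is small, and by summit −log10 p the centred log2 ratio was 0.69 in YAP-TFE3. The 2 sites of TEAD3 therefore had different leading lists, YAP5SA at 11.8 kb and YAP-TFE3 at 22.8 kb. Nearer to EV after centring was the TEAD3 site at 9.0 kb (chr6:35455617-35456466), with 424 in TAZ4SA to 2489 in TAZ-CAMTA1. It lay between 0.636 and 1.43 times EV after centring. So did the site at 28.7 kb (chr6:35435288-35437265), at 0.741 to 0.942 times, with areas of 2086 in TAZ4SA to 7271 in YAP-TFE3. The latter lies past the 3′ end of TEAD3, where the ribosomal protein gene RPL10A is a neighbour, and cannot be assigned to TEAD3.

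TEAD2 was open at its 5′ end and little elsewhere. Its gene body held 3 sites, at 6.0, 6.6 and 14.7 kb, and neither TAZ4SA nor YAP5SA had a peak in any of them. At 6.6 kb (chr19:49859125-49859652) the area was 90.7 in EV, 352 in CAMTA1, 190.2 in TFE3, 667 in TAZ-CAMTA1 and 245 in YAP-TFE3. The site at 6.0 kb (chr19:49859778-49860122) had 252 in TFE3, 334 in TAZ-CAMTA1 and 111 in YAP-TFE3 and no peak in the other lists. SLC6A16, CD37 and DKKL1 lie within 10 kb of TEAD2, so its flanking sites cannot be assigned to 1 gene.

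A pair of distal TEAD1 sites had their largest area in YAP5SA, and these were chosen after their values were seen. At 226.5 kb (chr11:12921845-12923195) the area was 297 in EV, 841 in TAZ4SA, 2465 in YAP5SA, 1336 in CAMTA1, 563 in TFE3, 1891 in TAZ-CAMTA1 and 2343 in YAP-TFE3. All 6 lists exceeded EV in area, and after centring the site was 4.26 times EV in TAZ4SA, 6.32 times in YAP5SA, 2.19 times in CAMTA1, 1.74 times in TFE3, 2.49 times in TAZ-CAMTA1 and 3.17 times in YAP-TFE3. At 95 kb (chr11:12789859-12792130) the area was 452 in EV, 356 in TAZ4SA, 3235 in YAP5SA, 2546 in CAMTA1, 615 in TFE3, 2186 in TAZ-CAMTA1 and 2311 in YAP-TFE3. Here YAP5SA stood at 5.45 times EV after centring, CAMTA1 at 2.74 times, YAP-TFE3 at 2.06 times, TAZ-CAMTA1 at 1.89 times, TFE3 at 1.25 times and TAZ4SA at 1.19 times. The VGLL4 site at 120.7 kb (chr3:11641707-11642921) had 2257 in EV, 3089 in TAZ4SA, 5149 in YAP5SA, 5083 in CAMTA1, 2552 in TFE3, 4584 in TAZ-CAMTA1 and 4779.9 in YAP-TFE3, and was 2.06 times EV in TAZ4SA after centring.

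TAZ4SA differed from EV mostly through smaller sites. At 188.8 kb of TEAD1 (chr11:12884258-12885345) the area was 965 in EV, 33.0 in TAZ4SA, 1348 in YAP5SA, 923 in CAMTA1, 957 in TFE3, 2535 in TAZ-CAMTA1 and 1478 in YAP-TFE3. TAZ4SA was 0.0515 times EV after centring and CAMTA1 0.465 times, while the other 4 lists lay between 0.616 and 1.06 times. At 139.0 kb of VGLL4 (chr3:11623256-11624696) the area was 1783 in EV, 111 in TAZ4SA, 1744 in YAP5SA, 3787 in CAMTA1, 1604 in TFE3, 4408 in TAZ-CAMTA1 and 3127 in YAP-TFE3. TAZ4SA was 0.0933 times EV there and the lowest of the 7 lists. A larger TEAD1 site at 139.7 kb (chr11:12834244-12837186) had 6199.7 in EV, 1217 in TAZ4SA, 5094 in YAP5SA, 8987 in CAMTA1, 6477 in TFE3, 13388 in TAZ-CAMTA1 and 12517 in YAP-TFE3, and TAZ4SA was 0.295 times EV. By summit −log10 p the ratios of TAZ4SA to EV at these sites were less extreme and not past the fold. The centred log2 was -0.89 at 188.8 kb and -0.48 at 139.7 kb of TEAD1, and -0.75 at 139.0 kb of VGLL4. TAZ4SA was also the shortest list with the lowest median peak area, and the part of its depth in these values was not tested.

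**Figure D3:**
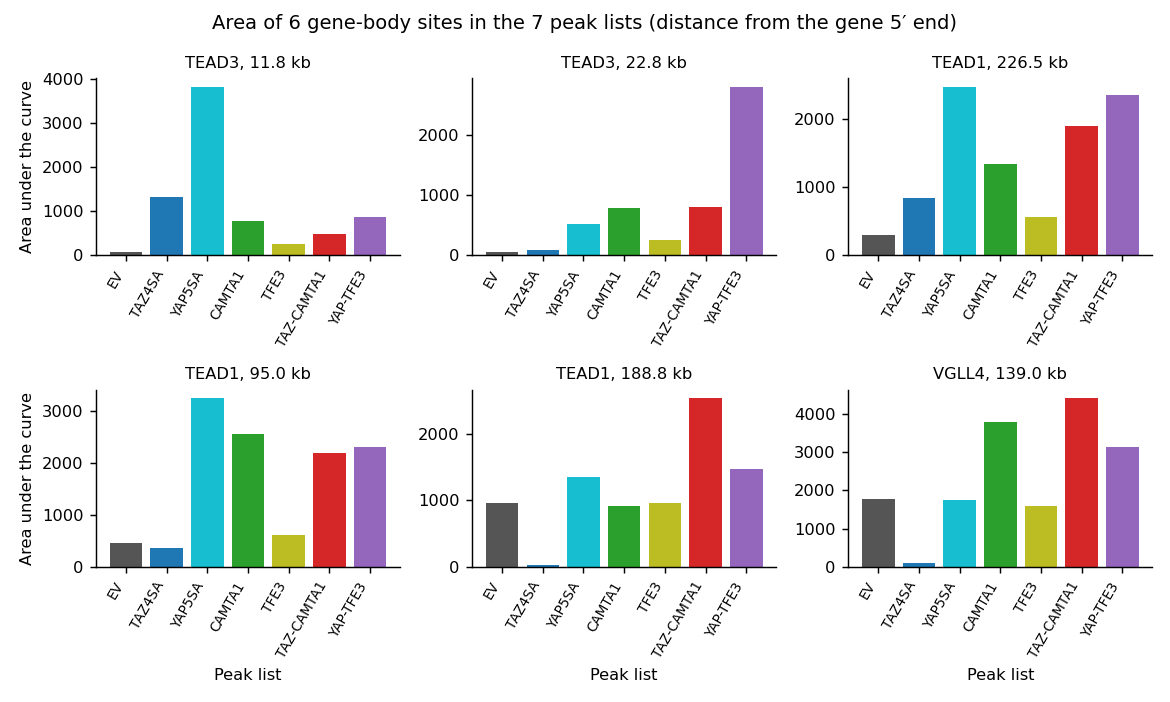
Bars give the area under the curve (linear axis from 0) of 6 gene-body sites in the 7 peak lists; each panel names the gene and the distance from its 5′ end, and the sites are those with the most extreme centred ratios to EV of their locus in YAP5SA, YAP-TFE3 or TAZ4SA. YAP5SA is highest at TEAD3 11.8 kb (3820.2), YAP-TFE3 at TEAD3 22.8 kb (2797), and TAZ4SA is near 0 at TEAD1 188.8 kb (33.0) and VGLL4 139.0 kb (111).

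Counted over all sites that the loci share with EV, the centred differences were as follows. TAZ4SA shared 46 sites with EV, of which 6 were at least 2 times higher (background of all shared sites 20.6%) and 19 at least 2 times lower (background 20.8%). The shares were not tested against the background. Lower sites made up 41.3% of those shared, and 10 of them lay in TEAD1 and 5 in VGLL4. YAP5SA shared 60 sites, with 6 higher (background 23.6%) and 4 lower (background 14.9%), both shares below the background. CAMTA1 shared 75, with 14 higher (background 20.9%) and 7 lower (background 13.5%), both shares near or below the background. TFE3 shared 71, with 16 higher (background 16.9%) and 6 lower (background 10.6%).

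Of the fusions, TAZ-CAMTA1 shared 78 sites with EV, of which 24 were at least 2 times higher (30.8%, against a background of 20.0%) and 2 lower (background 11.8%). YAP-TFE3 shared 77, with 20 higher (background 21.3%) and 6 lower (background 13.7%). The TEAD3 locus had 5 higher sites of 9 shared in each fusion list and none lower. With centring within bins of area, only the site at 22.8 kb of these stayed past the fold in TAZ-CAMTA1. In YAP-TFE3 only those at 22.8 and 11.8 kb did. TEAD1 had 14 higher and 2 lower of 44 in TAZ-CAMTA1, and 11 higher and 5 lower of 45 in YAP-TFE3. The median of the centred log2 ratio over the loci was -0.54 in TAZ4SA, -0.13 in YAP5SA, 0.13 in CAMTA1, 0.14 in TFE3, 0.25 in TAZ-CAMTA1 and -0.02 in YAP-TFE3, where all shared sites have a median of 0 by construction. The 6 comparisons use the same EV list, and centring within bins of area gave 17 higher sites in TAZ-CAMTA1 (background 14.3%), 13 higher in YAP-TFE3 (background 17.0%) and 16 lower in TAZ4SA (background 19.6%).

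**Figure D4:**
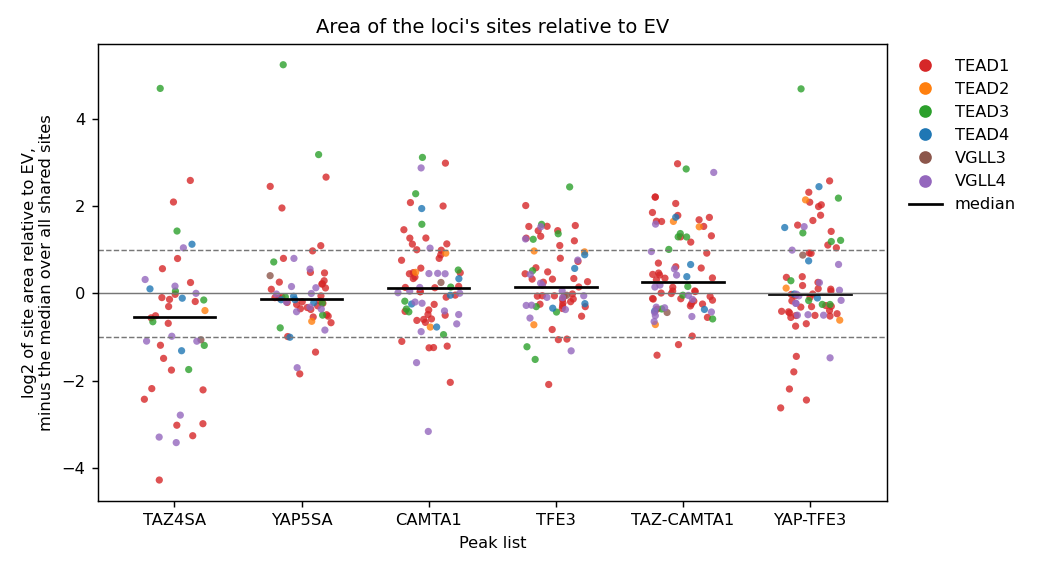
Each point is a site of the loci that the list shares with EV, coloured by locus, with the log2 ratio of its area to EV after centring on the median of all shared sites (vertical axis); black bars are medians and dashed lines mark 2 times higher and lower. The TAZ4SA points reach lowest, 19 of 46 lying at or under the lower line, and single TEAD3 sites stand at the top in TAZ4SA, YAP5SA and YAP-TFE3.

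Peaks without any EV overlap were also counted. In the loci they made up 24.2% of the TAZ4SA peaks (22 of 91, Wilson 95% interval 16.5 to 33.9), against 33.9% of the whole list. For YAP5SA they were 41.8% (61 of 146, 34.1 to 49.9), against 47.9%, and for CAMTA1 43.2% (70 of 162, 35.8 to 50.9), against 46.8%. TFE3 had 34.5% (48 of 139, 27.1 to 42.8) against 27.6%, TAZ-CAMTA1 56.0% (107 of 191, 48.9 to 62.9) against 51.5%, and YAP-TFE3 55.3% (105 of 190, 48.2 to 62.2) against 50.7%. The interval of the loci included the share of the whole list in each of the 6 lists. The intervals cover counting error only, and neighbouring peaks are not independent. Requiring an overlap of 50% of both peaks raised the share in TAZ4SA to 64.8% and in the other lists to between 50.4% and 81.2%. The whole-list shares under that setting are not given here.

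**Figure D5:**
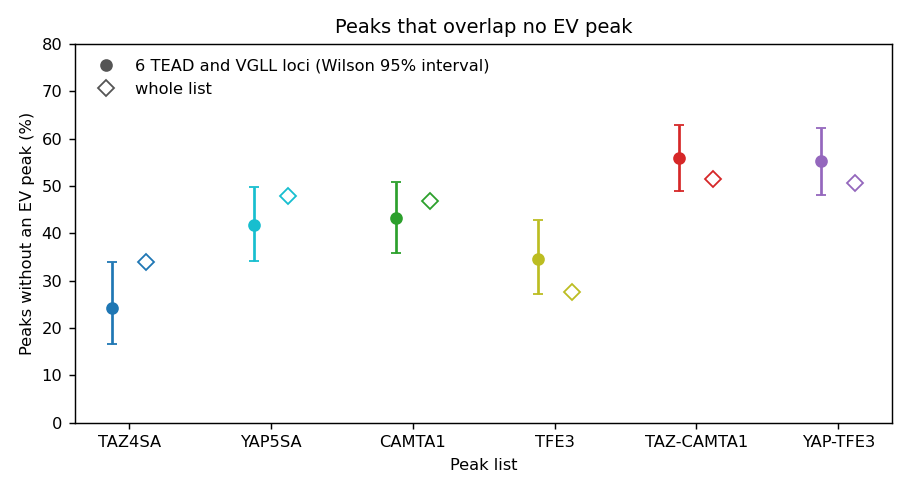
Share of peaks that overlap no EV peak (vertical axis, percent) in each of the 6 other lists; filled circles are the 6 loci with Wilson 95% intervals and open diamonds the whole list. The circles run from 24.2% in TAZ4SA to 56.0% in TAZ-CAMTA1, and the diamonds lie within the intervals.

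Peaks of the loci without an EV peak were narrow and weak. Their median width was 88.5 bp in TAZ4SA to 154 bp in TAZ-CAMTA1, and their median summit −log10 p 3.96 to 4.32, whereas peaks with an EV overlap had median widths of 220 to 568 bp. The largest site without an EV peak was in TEAD1 at 51.9 kb (chr11:12747549-12748347), with 72.5 in TAZ4SA, 625 in YAP5SA, 709 in CAMTA1, 166 in TFE3, 384 in TAZ-CAMTA1 and 1020.1 in YAP-TFE3. The TEAD1 sites at 28.9 and 29.9 kb also had a peak in all lists but EV, and these 3 made up 1.25% of the sites against 1.22% genome-wide. All 3 lay in the proximal part of the TEAD1 gene body. In VGLL4 the largest was at 80.9 kb (chr3:11681552-11682613), with no TAZ4SA peak and 162 in YAP5SA, 354 in CAMTA1, 132 in TFE3, 978 in TAZ-CAMTA1 and 479 in YAP-TFE3. TEAD4 had one at 55.9 kb (chr12:3123660-3124163), with 192 in YAP5SA, 416 in CAMTA1, 143 in TFE3, 191 in TAZ-CAMTA1 and 577 in YAP-TFE3.

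Over the 240 sites, 43 had a peak in all 7 lists (17.9%, Wilson 95% interval 13.6 to 23.3), against 16.2% of all sites. Of the 8 sites at 5′ ends 7 were in all lists, compared with 34 of 203 in gene bodies, 0 of 8 upstream and 2 of 21 downstream. No EV peak was present in 155 sites, 64.6% of the sites against 66.0% genome-wide. Sites of all lists were wide, with a median of 1441 bp. The 86 sites of a single list (35.8%, against 42.3% of all sites) had a median of 98 bp. A site spans all the peaks merged into it, so sites of more lists tend to be wider by construction. Of the single-list sites, 33 were found in TAZ-CAMTA1, 24 in YAP-TFE3, 11 in YAP5SA, 8 in TAZ4SA, 7 in CAMTA1, 3 in EV and 0 in TFE3. Genome-wide, single-list sites numbered 39214 in YAP5SA, 34769 in TAZ-CAMTA1, 30003 in YAP-TFE3, 21019 in CAMTA1, 18282 in TAZ4SA, 12382 in EV and 1519 in TFE3. YAP5SA thus led genome-wide and TAZ-CAMTA1 in the loci, while TFE3 had the fewest in both. Both fusions and no other list held 12 sites, 5.0% of the sites against 3.15% genome-wide, while 0 sites were shared by TAZ4SA and YAP5SA only (0.989% genome-wide). Sites in all lists but TAZ4SA numbered 13, or 5.42% against 4.25% genome-wide, and 9 of them were in TEAD1.

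EV sites with a peak in neither fusion list were few and small. There were 5, or 2.08% of the sites against 4.78% genome-wide. The largest of them was in TEAD1 at 93.7 kb, with an area of 55.8 in EV and 63.3 in YAP5SA. No site of the loci was held by both TAZ4SA and YAP5SA and by neither fusion.

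Each fusion was then set against the proteins it derives from, with the same centring between the pair of lists. TAZ-CAMTA1 and TAZ4SA shared 50 sites in the loci, of which 18 were at least 2 times larger in TAZ-CAMTA1 (background 26.7%) and 2 smaller (background 21.8%). All the larger ones except TEAD3 at 22.8 kb were also at least 2 times lower in TAZ4SA than in EV after centring. The smaller ones were TEAD3 at 11.8 kb and VGLL4 at 120.7 kb (0.444 times), both sites that were larger in TAZ4SA than in EV. With CAMTA1, which contributes its C-terminal part, TAZ-CAMTA1 shared 113 sites, of which 29 were larger (background 16.7%) and 5 smaller (background 14.0%). YAP-TFE3 and YAP5SA shared 85, with 21 larger (background 20.1%) and 11 smaller (background 20.8%), and YAP-TFE3 and TFE3 shared 95, with 12 larger (background 15.6%) and 8 smaller (background 9.34%). Centring within bins of area turned this last balance, to 6 larger (background 12.4%) and 10 smaller (background 11.3%), and in the other comparisons of a fusion with the proteins it derives from the larger sites stayed the more numerous. Between the fusions, 129 sites were shared, 25 larger in TAZ-CAMTA1 (background 16.1%) and 15 larger in YAP-TFE3 (background 13.9%).

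Named sites show where the fusions parted from each other and from the activated coactivators. TEAD1 at 103.6 kb had an area of 2635 in YAP-TFE3 and 185 in YAP5SA, a centred ratio of 8.38. With an EV area of 359, this site was 2.95 times EV in YAP-TFE3 and 0.393 times in YAP5SA after centring. The VGLL4 site at 82.6 kb had 84.6 in TAZ4SA and 3319 in TAZ-CAMTA1, a centred ratio of 11.7. With an EV area of 881, TAZ4SA was 0.144 times EV there after centring, while TAZ-CAMTA1 lay within 2 times of EV. The centred ratio of TAZ-CAMTA1 to YAP-TFE3 was 0.298 at TEAD3 22.8 kb and 0.427 at the 5′ end of VGLL3. With centring within bins of area, the log2 ratio of the pair was 2.93 at 103.6 kb of TEAD1 and 2.99 at 82.6 kb of VGLL4. By summit −log10 p the centred log2 ratios to EV were smaller. They were -0.17 in YAP5SA and 0.47 in YAP-TFE3 at 103.6 kb, and -0.25 in TAZ4SA at 82.6 kb. All sites named in this paragraph were chosen after their values were seen and have no replicate check.

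By covered bases, the lists overlapped in the loci much as they did genome-wide. The Jaccard index, bases covered by both lists divided by bases covered by either, was 0.332 for TAZ-CAMTA1 and TAZ4SA in the loci (0.375 over the whole lists). For TAZ-CAMTA1 and CAMTA1 it was 0.697 (0.665), for YAP-TFE3 and YAP5SA 0.587 (0.558), and for YAP-TFE3 and TFE3 0.653 (0.630). The fusions shared 0.701 with each other (0.681). At these loci, as over the whole lists, TAZ-CAMTA1 had a higher index with CAMTA1 than with TAZ4SA, and YAP-TFE3 a higher one with TFE3 than with YAP5SA. YAP-TFE3 had a still higher index, 0.700 (0.671), with CAMTA1, which it does not carry, whereas TAZ-CAMTA1 had 0.587 (0.604) with TFE3. For YAP-TFE3 a high index was thus not particular to the part it carries. TAZ4SA is the shortest list, and a short list lowers the index: 96.7% of its bases in the loci were also covered in TAZ-CAMTA1, which had 33.6% of its own bases covered in TAZ4SA.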

How the data were processed

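ATAC-seq peaks of 20 SW872 libraries in 7 groups were analysed from 7 lists in narrowPeak format, 1 per vector. The study's methods name NGmerge for trimming, BWA-MEM for alignment and Genrich in ATAC-seq mode for peak calling on each replicate, with removal of PCR duplicates and of hg19 artefact regions. How the libraries of a vector became 1 list is not given in the sources used here. The submitters' processing notes name Bowtie 0.12.2 and mm8, whereas the peaks lie on human chromosomes and reach past the hg38 end of chromosome 1. The deposited signal of a peak is its area under the curve (lowest value 20), and the authors also deposited the −log10 p of the summit. The score, the −log10 q and the remaining deposited columns were not used.

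Members and lists were chosen with earlier results of these data known. Peaks were taken by overlap of 1 bp or more, and merged into sites when they overlapped or abutted. A site within 2 kb of the gene 5′ end was called a 5′-end site. The strand came from the GENCODE annotation, and neighbouring genes and start sequences from RefSeq (GRCh38.p14), whose coordinates were not placed on hg19. Sites named were those at the 5′ end, up to 3 others by the largest smallest area over the 7 lists, up to 3 without an EV peak in at least 2 lists, and up to 2 EV sites in neither fusion list; others were chosen after their values were seen. Overlaps were computed in Python 3.11.15 (pandas 2.3.3) and checked on simulated peaks against bedtools 2.31.1. With 1 list per vector no test was run, and depth is unknown. The comparisons of each fusion with its parts were chosen after seeing the data.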

Additional observations from a re-analysis of the deposited data

How the results depend on the processing

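No paired analysis was possible because a vector has 1 peak list and no values per library. Leaving out single libraries was not run for that reason, and VGLL1, VGLL2, YAP1 and WWTR1 were not run because an hg19 annotation was not used here. Of 130 alternative values for 26 summary results, 105 stayed within the Wilson interval (shares) or 1.5 times (other values) of the value reported and 25 moved. Shares of peaks without an EV peak became 64.8% (TAZ4SA), 61.0% (YAP5SA), 64.2% (CAMTA1), 50.4% (TFE3), 81.2% (TAZ-CAMTA1) and 72.6% (YAP-TFE3) with an overlap of 50% of both peaks. Windows reaching 250 bp from the summit gave 31.5% (YAP5SA), 30.2% (CAMTA1), 21.6% (TFE3), 46.6% (TAZ-CAMTA1) and 40.5% (YAP-TFE3), and with equal numbers of peaks 47.1% (TAZ-CAMTA1) and 40.3% (YAP-TFE3). The whole-list shares under these settings are not given here. The share of sites in all 7 lists was 24.6% with equal numbers, 25.1% with windows and 23.8% after merging peaks up to 150 bp apart, beside 22.2%, 21.3% and 20.0% of all sites. With peaks under a summit −log10 p of 4 removed, counts past the fold were 9 higher and 4 lower in CAMTA1, 9 and 3 in TFE3, 15 higher in TAZ-CAMTA1, and 11 higher and 2 lower in YAP-TFE3. That filter left 174 of the 240 sites, and the background under it is not given here, so these counts cannot be read as shares. YAP-TFE3 had 13 higher with centring within bins of area. By summit −log10 p TFE3 had 3 lower, by a cut-off for that measure that is not given here. At the 6 TFE3 sites lower by area, the centred log2 ratio of the summit lay between -0.35 and -0.0096. Counts by summit, including those among the 105, therefore do not show that the calls at 2 times held by that measure. Of 390 alternative values for single sites past the fold, 379 kept their direction and 11 turned. By summit −log10 p in place of area (log2) these were VGLL4 at 128.9 kb in TAZ4SA (0.093), TEAD1 at 17.1 kb (-0.0031) and VGLL4 at 82.6 kb (0.0091) in YAP5SA, TEAD1 at 3.8 kb in CAMTA1 (-0.20) and TAZ-CAMTA1 (-0.21), TEAD3 at 11.8 kb (-0.18) and -3.7 kb (-0.070) in TAZ-CAMTA1, and TEAD3 at -3.7 kb (-0.031), TEAD1 at 12.6 kb (-0.089) and VGLL4 at 151.2 kb (-0.22) in YAP-TFE3. By the largest peak of a site, TEAD3 at 5.5 kb in YAP-TFE3 turned (-0.038). The cause of these moves was not tested. The 5′ ends had a peak in all 7 lists at 6 of 6 loci under every alternative run for them. Without TEAD1, chosen after seeing the data, 21.9% of 96 sites were in all 7 lists.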
